A study of Mus musculus with 2 samples.

Results

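A set of 42 genes of the cell division cycle was followed through the leukocytes of the pancreatic islet, to see which cell types held dividing cells and in which phase of the cycle those cells were caught. The genes were taken from textbook knowledge of the cycle, not from their values in these cells, although earlier results of these data were known. These are 42 of the 32285 genes counted. They fall into an S list of 17 genes for DNA replication and a G2/M list of 25 genes for chromosome condensation, mitosis and cytokinesis. All 42 were found under their own symbols.

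Islet leukocytes were compared between NOD mice, which become diabetic through autoimmunity, and NOD.Cxcl16-/- mice, which are labelled as lacking the chemokine gene Cxcl16. Both groups were females aged 12 weeks. The deleted part of Cxcl16 is not given in the sources used here, and neither is the number of animals pooled. Pancreata were digested with collagenase, islets were picked by hand and dispersed without enzymes, and live CD45+CD31- cells were sorted and profiled by droplet single-cell RNA sequencing from the 3′ end of transcripts. Each group has 1 library, so no difference between the groups has a replicate check, and no test over samples can be made.

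A cell that divides first licenses its replication origins with the MCM helicase, then copies its DNA in S phase with a polymerase clamp (Pcna), nucleotide-making enzymes and histone-handling factors. In G2 it builds up cyclin B with the kinase Cdk1, and in mitosis the Aurora and Polo kinases, kinetochore proteins and kinesins separate the chromosomes before the anaphase-promoting complex destroys the cyclins. The S genes are classical targets of the E2F factors, which the retinoblastoma family holds in check, and many G2/M genes carry a cell-cycle homology region (CHR) that is read by the DREAM and MuvB complexes together with upstream CCAAT boxes bound by NF-Y. In lymphocytes this program is switched on by antigen and cytokines. Germinal-centre B cells and recently activated T cells are among the fastest dividing cells of the body, whereas naive lymphocytes rest.

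The promoters of the members are shown first, because the division of the genes into an S list and a G2/M list is visible in their letters. RefSeq promoter windows (build GRCm38.p6, 250 bases before to 50 after a gene's start) matched 36 of the 42 members. Mcm4, Gins2, Ccna2, Aurkb, Tpx2 and Kif20a had no entry. Each window was searched on both strands for the E2F words TTTCCCGC, TTTGGCGC and TTTCGCGC, for the CHR words TTTGAA and TTCGAA and for CCAAT. The 120 bases before the start are printed 5′ to 3′ on the strand of the gene, with every match in capitals. A match is a description of these letters, and binding was not measured. For the G2/M list the 4 members of highest level with a CHR word in this stretch are shown.
Top2a, chr11:99024190-99024309, minus strand: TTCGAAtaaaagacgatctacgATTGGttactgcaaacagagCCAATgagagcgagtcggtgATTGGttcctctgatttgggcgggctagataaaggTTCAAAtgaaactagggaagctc
Ube2c, chr2:164769809-164769928, plus strand: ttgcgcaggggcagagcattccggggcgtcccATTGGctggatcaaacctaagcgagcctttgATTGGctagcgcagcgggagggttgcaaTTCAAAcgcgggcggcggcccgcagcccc
Mki67, chr7:135716380-135716499, minus strand: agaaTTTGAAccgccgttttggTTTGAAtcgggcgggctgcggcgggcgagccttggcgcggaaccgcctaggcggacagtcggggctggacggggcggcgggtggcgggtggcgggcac
Cks1b, chr3:89418292-89418411, minus strand: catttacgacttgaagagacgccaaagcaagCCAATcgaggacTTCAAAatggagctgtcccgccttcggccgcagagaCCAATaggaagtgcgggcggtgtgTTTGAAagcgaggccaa
For the S list, 2 members had an E2F word within this stretch.
Mcm6, chr1:128359706-128359825, minus strand: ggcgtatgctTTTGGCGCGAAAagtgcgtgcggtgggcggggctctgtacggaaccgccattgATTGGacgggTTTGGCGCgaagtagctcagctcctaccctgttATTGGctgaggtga
Hells, chr19:38930870-38930989, plus strand: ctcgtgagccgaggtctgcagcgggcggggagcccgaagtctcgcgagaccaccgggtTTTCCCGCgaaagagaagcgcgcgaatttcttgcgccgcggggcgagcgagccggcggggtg

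The CHR word nearest to the start lay 23 bases before it in Top2a, 29 in Ube2c and 17 in Cks1b, with CCAAT boxes further upstream at 58, 57 and 41 bases. Mki67 differed from these genes, since its nearest CHR word was 98 bases before the start and no CCAAT box was found in the printed stretch. Over the whole window, 15 of 21 G2/M promoters held a CHR word (71.4%) and 18 held a CCAAT box (85.7%), whereas 1, that of Cdk1, held an E2F word (4.76%). Of 15 S promoters, 8 held an E2F word (53.3%), 3 a CHR word and 11 a CCAAT box (73.3%). The E2F words were found in the windows of Cdc6, Hells, Mcm3, Mcm5, Mcm6, Mcm7, Pclaf and Uhrf1. Among all 27025 genes of the table the shares were 2.12% for E2F, 21.7% for CHR and 41.1% for CCAAT. The CHR share of the S promoters was thus near that of all promoters, and the E2F share of the G2/M promoters was 1 gene. In a shorter window, from 150 bases before the start, 15 G2/M promoters held a CHR word, against 13.7% of all genes, and 7 S promoters held an E2F word, against 1.55%.

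The WT NOD library held 13859 barcodes with 93553185 unique molecular identifiers (UMIs, 1 per captured transcript), and the library labelled NOD.Cxcl16-/- held 10554 barcodes with 98681133 UMIs. After a filter on genes and mitochondrial reads, 12252 and 10214 cells remained with medians of 4269 and 5189 UMIs, and 45 barcodes occurred in both libraries. Cxcl16 itself was counted at 66.0 CPM (counts per 1000000 UMIs) over all WT NOD cells given a class and at 70.2 CPM in the other library, and at 701 and 487 CPM in macrophage-like cells. A 3′ tag outside the deleted part would not check the label, so "the library labelled NOD.Cxcl16-/-" is used throughout. Cells were given 1 of 16 classes from panels of marker genes, none of which is a cell-cycle member. The names end in "-like" because they rest on these panels alone, and a difference from classes defined in another way may come from that. All markers of each class's own panel were detected in it. Among the 10 genes of highest fold in a class, the migratory dendritic class also held the islet hormones Ppy and Pyy and the macrophage class held Ins2, the insulin gene of beta cells. Islet hormone genes summed to 449 CPM over the WT NOD cells and to 639 CPM in the other library, acinar and duct markers to 3.59 and 4.83 CPM, and the leukocyte gene Ptprc to 573 and 587 CPM.

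Dividing cells were counted after each cell had been thinned at random to 2000 UMIs, so that cells of different depth had the same chance to show a gene. A cell was called cycling when it then held UMIs of at least 3 different S members or of at least 3 different G2/M members. Cells below 2000 UMIs were left out, which took more cells from WT NOD: 585 of 2843 against 78 of 1630 CD8 T-like cells and 947 of 2425 against 173 of 1444 T-like cells without a coreceptor UMI. Shares are given with exact Clopper-Pearson intervals, levels with exact Poisson intervals and differences of shares with Newcombe intervals, all at 95%, and these cover counting error only, not differences between mice. Of 7737 WT NOD cells given a class and deep enough, 1201 were cycling (15.5%, 14.7 to 16.3%). In the library labelled NOD.Cxcl16-/- it was 838 of 7735 (10.8%, 10.1 to 11.5%).

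Among the WT NOD cells given a class, most cycling cells were CD8 T-like cells, which carry Cd8a or Cd8b1 transcripts and no Cd4. Of 2258 such cells 684 were cycling (30.3%, 28.4 to 32.2%). They made up 57.0% of the cycling cells with a class but 29.2% of the cells with a class that were examined. In the library labelled NOD.Cxcl16-/- 308 of 1552 were cycling (19.8%, 17.9 to 21.9%), which was 36.8% of the cycling cells with a class from 20.1% of such cells. CD8 T-like cells were thus over-represented among the cycling cells with a class in both libraries. Cycling cells without a class are not in these percentages. They were 277 and 273 with markers of 2 lineages, 73 and 56 with Cd4 and CD8 transcripts, and 54 and 68 of no panel. Without thinning, at a median of 4779 and 5755.5 UMIs per cell, the cycling share of CD8 T-like cells was 48.0% and 45.5%. The call has a margin: 312 and 272 CD8 T-like cells reached exactly 2 members in their better list and 116 and 71 reached exactly 3.

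Naive-like T cells, which should rest, were taken as the reference for the call. These were T-like cells other than regulatory ones with at least 2 of 3 markers of naive cells and neither Ccl5 nor Nkg7. Of them 12 of 381 were called cycling in WT NOD (3.15%, 1.64 to 5.44%) and 17 of 377 in the other library (4.51%, 2.65 to 7.12%), at median depths of 4292 and 4199 UMIs. Without thinning 16.3% and 16.4% of them were called. The cells called held most of the group's UMIs of some members. In WT NOD Pclaf had 104 UMIs in all naive-like T cells and 8 in those not called. Mki67 had 52 and 3, whereas Kif23 had 143 and 127. Whether the called cells divide was not tested, so the share is not an error rate of the call. Below, background means only a share in the range of these cells, which may include dividing ones.

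**Figure D1:**
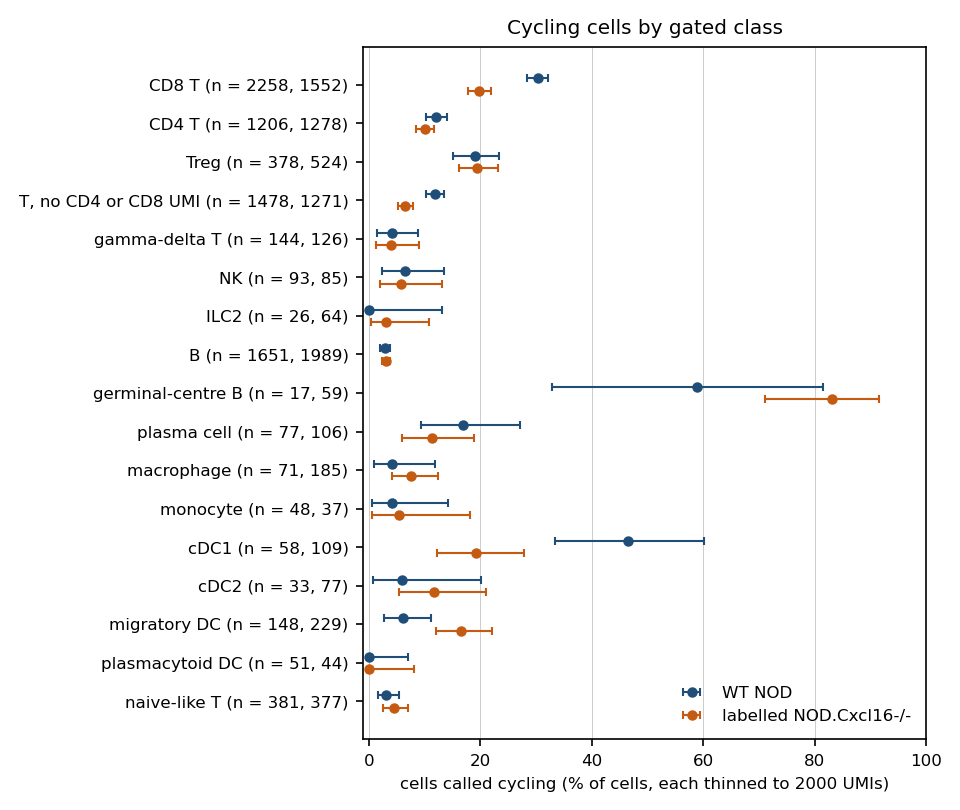
Share of cells called cycling in each marker-gated class, in percent of cells thinned to 2000 UMIs, for the WT NOD library (blue) and the library labelled NOD.Cxcl16-/- (orange). Points are shares, bars are exact 95% intervals of counting error, and n gives the cells of each library; CD8 T-like cells lie at 30.3% and 19.8%, germinal-centre B-like cells at 58.8% and 83.1%, and B-like cells at 2.85% and 3.02%.

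Regulatory T-like cells, which carry Foxp3 or both Il2ra and Ikzf2, were the second dividing T-like class. In WT NOD 72 of 378 were cycling (19.0%, 15.2 to 23.4%, and 42.9% unthinned), and in the other library 102 of 524 (19.5%, 16.2 to 23.1%, and 40.7% unthinned). Other CD4 T-like cells had 145 of 1206 cycling (12.0%, 10.2 to 14.0%) and 128 of 1278 (10.0%, 8.42 to 11.8%). Helper-type cells were therefore called cycling at a lower share than regulatory cells in both libraries, with intervals that do not overlap. These classes were read from unthinned cells. When they were read from thinned cells, regulatory T-like cells had 18.8% (14.0 to 24.3%) and 13.7% (9.97 to 18.2%). Other CD4 T-like cells then had 9.80% (7.82 to 12.1%) and 8.72% (6.86 to 10.9%). With that gate the intervals overlapped in the library labelled NOD.Cxcl16-/- but not in WT NOD. T-like cells with no coreceptor UMI, a class whose median depth was 2710 and 3724 UMIs and whose leading genes included Igfbp4, Lef1, Il7r and S1pr1, had 175 of 1478 cycling (11.8%, 10.2 to 13.6%) and 83 of 1271 (6.53%, 5.23 to 8.03%).

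B-like cells were near the background. Of these, 47 of 1651 were called in WT NOD (2.85%, 2.10 to 3.77%) and 60 of 1989 in the other library (3.02%, 2.31 to 3.87%), which overlaps the naive-like T background. By number, these called B-like cells were still more than those of the germinal-centre B-like class, 10 and 49. Within the B lineage the highest share was that of cells with at least 3 of 6 markers of germinal-centre cells. Of these 10 of 17 were cycling in WT NOD (58.8%, 32.9 to 81.6%) and 49 of 59 in the other library (83.1%, 71.0 to 91.6%), at median depths of 18399 and 21510 UMIs. Their share was the highest of all classes in both libraries. In WT NOD its interval overlaps that of cDC1-like cells. The class depends on depth, since its markers were read from unthinned cells. With markers read from thinned cells, 0 of 1 and 6 of 8 germinal-centre B-like cells were cycling. The B-like share was then 3.85% (2.98 to 4.89%) and 4.69% (3.81 to 5.71%). Plasma cell-like cells had 13 of 77 (16.9%, 9.31 to 27.1%) and 12 of 106 (11.3%, 5.99 to 18.9%). The cycling ones held less of their own panel (11265 and 18340 CPM) than the other plasma cell-like cells (42610 and 39063 CPM).

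Among myeloid cells, the conventional dendritic cells that cross-present antigen, cDC1, stood out in WT NOD. In the other library their interval overlaps those of cDC2-like, migratory dendritic-like, macrophage-like and monocyte-like cells. Of the cDC1-like cells, gated on Xcr1, Clec9a and other panel genes, 27 of 58 were cycling in WT NOD (46.6%, 33.3 to 60.1%) and 21 of 109 in the other library (19.3%, 12.3 to 27.9%). cDC2-like cells had 2 of 33 (6.06%, 0.743 to 20.2%) and 9 of 77 (11.7%, 5.49 to 21.0%). Migratory dendritic-like cells, which carry Ccr7, Fscn1 and Ccl22, had 9 of 148 (6.08%, 2.82 to 11.2%) and 38 of 229 (16.6%, 12.0 to 22.1%). Macrophage-like cells had 3 of 71 (4.23%, 0.880 to 11.9%) and 14 of 185 (7.57%, 4.20 to 12.4%), and monocyte-like cells 2 of 48 and 2 of 37. These 2 classes overlapped the background in both libraries after thinning, although 33.0% and 47.4% of macrophage-like cells passed the call unthinned, at median depths of 12400 and 11314 UMIs.

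Without thinning every one of these shares was larger. It was 29.2% and 30.7% in CD4 T-like cells, 23.1% and 19.0% in T-like cells without a coreceptor UMI and 12.7% in B-like cells of both libraries. It was 82.4% and 91.5% in germinal-centre B-like and 79.3% and 72.1% in cDC1-like cells. In migratory dendritic-like cells it was 63 of 162 and 116 of 232. The depth behind it was a median of 23118.5 and 20336 UMIs in cDC1-like and 12005 and 12342.5 UMIs in migratory dendritic-like cells.

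The remaining classes were near the background. Gamma-delta T-like cells had 6 of 144 (4.17%) and 5 of 126 (3.97%), and NK-like cells 6 of 93 (6.45%) and 5 of 85 (5.88%). No plasmacytoid dendritic-like cell was cycling, 0 of 51 and 0 of 44, which allows shares of up to 5.88% and 6.82% by a limit of 3 counts (exact 95% upper bounds 6.98% and 8.04%). ILC2-like cells had 0 of 26, which allows up to 11.5% by the same limit (exact bound 13.2%), and 2 of 64 (3.12%).

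The CD8 T-like cells were also split by state, with naive-like cells set apart first and the others by Tcf7 or Slamf6, genes of stem-like cells, and by Havcr2 or Entpd1, genes of terminally differentiated or exhausted cells. In WT NOD 3 of 66 naive-like CD8 T cells were cycling, 134 of 688 with Tcf7 or Slamf6 (19.5%, 16.6 to 22.6%) and 103 of 254 with Havcr2 or Entpd1 (40.6%, 34.5 to 46.9%). In the other library it was 1 of 59, 58 of 526 (11.0%, 8.48 to 14.0%) and 54 of 162 (33.3%, 26.1 to 41.2%). The order was the same in both libraries, and the intervals of the stem-like and the Havcr2 or Entpd1 cells do not overlap. Cells with neither pair of genes, the largest state, had 433 of 1221 (35.5%, 32.8 to 38.2%) and 192 of 782 (24.6%, 21.6 to 27.7%). These intervals overlap those of the Havcr2 or Entpd1 cells. Tcf7 and Slamf6 were lower by 1.5-fold or more in cycling than in other CD8 T-like cells of both libraries. Havcr2 and Entpd1 did not pass that fold in both. Cells with genes of both pairs were few, with 11 of 29 and 3 of 23 cycling. State genes were read from the thinned cells, as the call was. Before thinning, the median depth was 5535 and 5551 UMIs with Tcf7 or Slamf6 and 6409 and 6762 UMIs with Havcr2 or Entpd1.

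The levels of the genes themselves gave the same leading classes. CPM were summed over all cells of a class, with no thinning. In the CD8 T-like class the S list summed to 1660 CPM in WT NOD (1643 to 1678) and 1446 CPM in the other library (1426 to 1467), and the G2/M list to 2571 (2549 to 2593) and 2184 CPM (2160 to 2209). Among all cells given a class, CD8 T-like cells held 55.6% and 35.1% of the S list UMIs and 60.6% and 38.7% of the G2/M UMIs. They held 35.0% and 22.5% of the UMIs of all genes. Germinal-centre B-like cells had the highest sums, with 2215 and 3183 CPM for the S list and 4846 and 4507 CPM for the G2/M list. In the library labelled NOD.Cxcl16-/- these 59 cells held 9.20% of the S and 9.54% of the G2/M UMIs on 2.68% of all UMIs.

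The other classes ranged below. Regulatory T-like cells summed to 1174 and 1404 CPM for S and 1822 and 2111 CPM for G2/M, CD4 T-like cells to 1054 and 1031 and to 1242 and 1235 CPM, and B-like cells to 381 and 431 and to 477 and 484 CPM. Naive-like T cells gave 604 and 379 CPM for S and 534 and 616 CPM for G2/M, with the cells called cycling among them. B-like cells were under these sums in the S list in WT NOD and in the G2/M list in both libraries. The sums of naive-like T cells are not a resting level, so no order of B-like and resting T cells is read from them. The lowest sums were those of plasmacytoid dendritic-like cells, 189 and 137 CPM for S and 102 and 166 CPM for G2/M.

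Single genes followed these sums. Among WT NOD classes with at least 500000 UMIs, 12 of 17 S members and 23 of 25 G2/M members were highest in CD8 T-like cells. cDC1-like cells were highest for Gins2, Pclaf, Tk1 and Uhrf1 of the S list and for Cks1b and Aurka of the G2/M list, and regulatory T-like cells for Rrm1, at 62.3 CPM against 62.2 CPM in CD8 T-like cells. The 17 WT NOD germinal-centre B-like cells had 405942 UMIs and were left out of this ranking. In the library labelled NOD.Cxcl16-/-, where the class had 1656850 UMIs, all 42 members were highest in it.

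**Figure D2:**
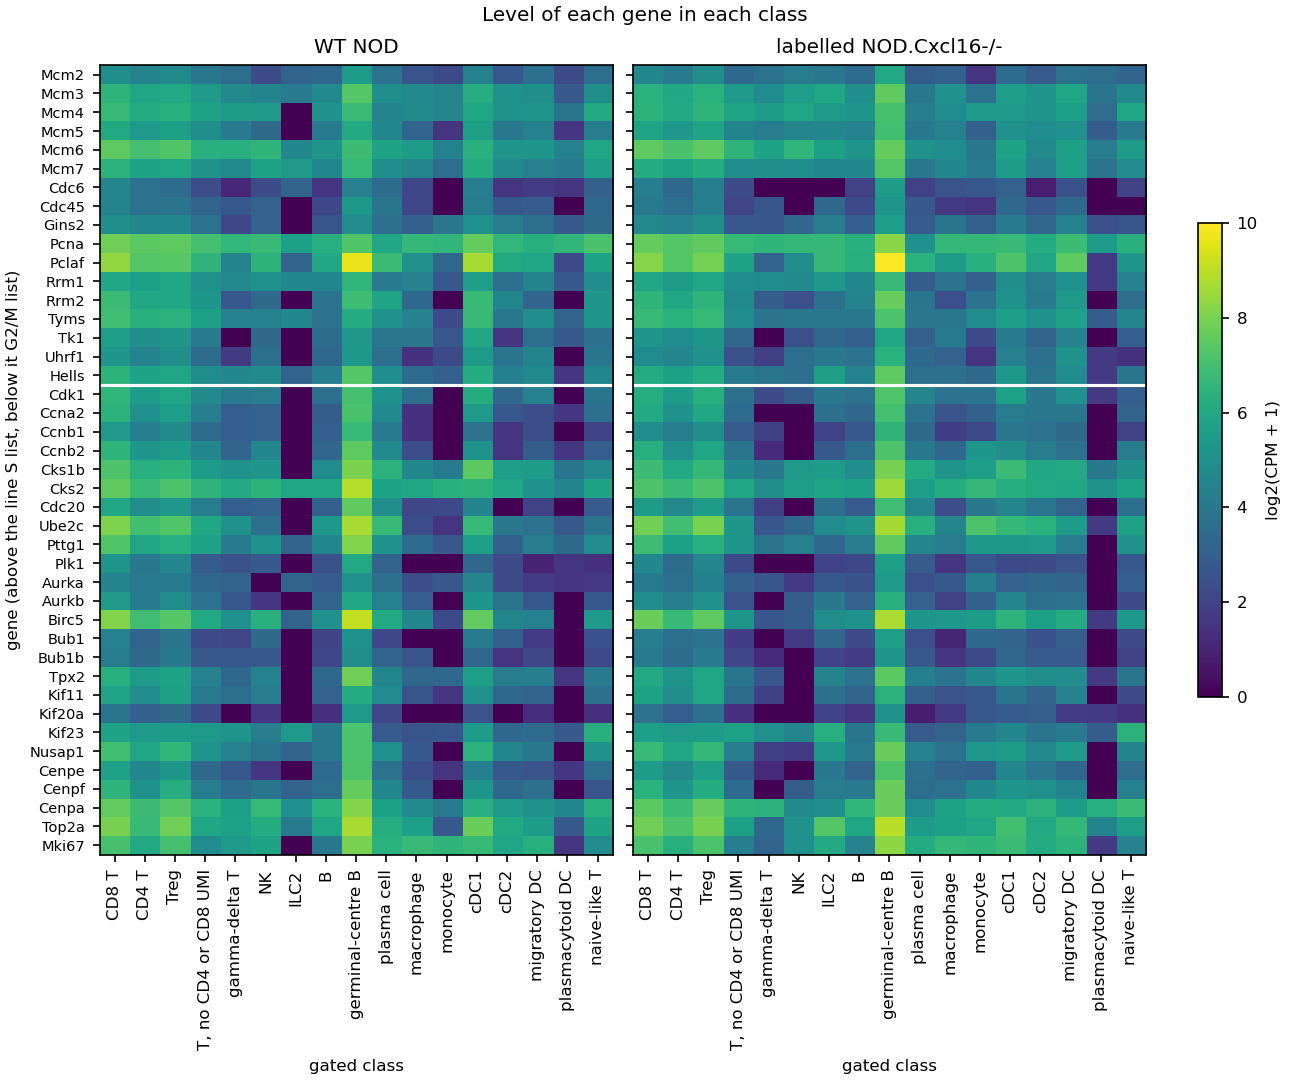
Level of each of the 42 genes (rows, S list above the white line, G2/M list below) in each class (columns) of the WT NOD library (left) and the library labelled NOD.Cxcl16-/- (right), as log2(CPM + 1). Germinal-centre B-like cells form the brightest column in both libraries, CD8 T-like and regulatory T-like cells are bright in both, cDC1-like cells are brighter in WT NOD, and plasmacytoid dendritic-like cells are dark for most G2/M genes.

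Genes of the replication fork differed in how far they marked dividing classes. Pclaf, a partner of the polymerase clamp, was at 335 and 291 CPM in CD8 T-like cells (WT NOD first), 845 and 1109 CPM in germinal-centre B-like cells, 409 and 146 CPM in cDC1-like cells and 170 and 243 CPM in regulatory T-like cells. It was lower in B-like cells, at 61.5 and 77.8 CPM, and in naive-like T cells, at 55.1 and 35.0 CPM. Pcna, the clamp itself, spanned less. It was at 226 and 199 CPM in CD8 T-like cells, 155 and 301 CPM in germinal-centre B-like cells, 138 and 81.5 CPM in naive-like T cells and 78.0 and 80.5 CPM in B-like cells. The helicase subunits Mcm4 and Mcm6 were at 102 and 86.6 CPM and at 184 and 181 CPM in CD8 T-like cells. In naive-like T cells Mcm4 was at 66.8 and 58.0 CPM and Mcm6 at 57.8 and 43.0 CPM, so Mcm4 differed less between these classes than Mcm6.

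Enzymes of nucleotide supply were higher in the dividing classes than in B-like cells. Rrm2, the regulated subunit of ribonucleotide reductase, was at 112 and 92.7 CPM in CD8 T-like, 118 and 206 CPM in germinal-centre B-like and 13.1 and 21.0 CPM in B-like cells. Thymidylate synthase, Tyms, was at 121 and 106 CPM in CD8 T-like and 12.2 and 15.0 CPM in B-like cells. Rrm1, the constant subunit of the reductase, was at 62.2 and 61.5 CPM in CD8 T-like and 23.2 and 24.6 CPM in B-like cells, a narrower span than that of Rrm2. The thymidine kinase Tk1 was at 46.6 and 36.3 CPM in CD8 T-like cells and without a UMI in gamma-delta T-like cells of both libraries. Of the chromatin factors, Uhrf1, which keeps DNA methylation through replication, was at 37.0 and 27.8 CPM and the remodeller Hells at 87.6 and 69.2 CPM in CD8 T-like cells.

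The mitotic engine was concentrated in the same classes. Cdk1, the mitotic kinase, was at 94.3 and 73.7 CPM in CD8 T-like, 133 and 151 CPM in germinal-centre B-like, 58.6 and 77.6 CPM in regulatory T-like and 11.7 and 12.3 CPM in B-like cells. Its partner cyclin Ccnb2 was at 89.2 and 78.4 CPM in CD8 T-like and 8.82 and 11.2 CPM in B-like cells. The small CDK-binding proteins spread more widely. Cks2 was at 190 and 146 CPM in CD8 T-like, 57.8 and 50.6 CPM in B-like and 79.4 and 102 CPM in monocyte-like cells. Cks1b was at 148 and 115 CPM in CD8 T-like, 179 and 110 CPM in cDC1-like and 28.1 and 29.2 CPM in B-like cells.

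Genes that act at the end of mitosis spanned a wide range of levels. Ube2c, the ubiquitin-conjugating enzyme of the anaphase-promoting complex, was at 264 and 230 CPM in CD8 T-like and 416 and 400 CPM in germinal-centre B-like cells. It was at 13.3 CPM in naive-like T cells of WT NOD and 51.7 CPM in those of the other library, and at 4.27 and 22.7 CPM in macrophage-like cells. Cdc20, an activator of that complex, was at 60.3 and 43.6 CPM and Pttg1, the securin that it destroys, at 154 and 117 CPM in CD8 T-like cells. In B-like cells they were at 7.31 and 6.25 CPM and at 22.9 and 17.4 CPM.

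Mitotic kinases were counted at low levels. Plk1 was at 35.2 and 24.6 CPM, Aurka at 21.5 and 16.7 CPM and Aurkb at 40.9 and 29.8 CPM in CD8 T-like cells. In B-like cells they were at 4.63 and 3.43, 6.35 and 4.58, and 8.17 and 7.75 CPM. The passenger-complex protein Birc5, survivin, was at 271 and 214 CPM in CD8 T-like, 535 and 429 CPM in germinal-centre B-like and 32.6 and 34.5 CPM in B-like cells. Each of these 4 genes was thus higher in CD8 T-like than in B-like cells of both libraries.

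Of the 4 spindle and kinetochore genes followed here, 3 were low in B-like cells. In CD8 T-like cells Tpx2, a spindle assembly factor, was at 78.1 and 65.3 CPM, Nusap1, a microtubule bundler, at 123 and 107 CPM and Cenpf, a kinetochore protein of G2, at 89.7 and 83.3 CPM. In B-like cells they were at 9.36 and 12.2, 15.7 and 16.4, and 11.1 and 16.5 CPM. Cenpa, the histone of the centromere, was the exception, at 193 and 180.0 CPM in CD8 T-like and still at 83.3 and 95.5 CPM in B-like and 78.5 and 112 CPM in naive-like T cells.

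Mki67 and Top2a, the usual markers of proliferation, differed in macrophage-like cells and in some other classes. Top2a, which untangles DNA, was at 247 and 228 CPM in CD8 T-like, 228 and 245 CPM in regulatory T-like, 411 and 497 CPM in germinal-centre B-like and 59.3 and 57.5 CPM in B-like cells. Mki67, which coats mitotic chromosomes, was at 135 and 139, 132 and 142, 256 and 314, and 15.5 and 20.7 CPM in these classes. In macrophage-like cells Mki67 stayed at 107 and 99.2 CPM while Top2a was at 48.7 and 50.5 CPM. After thinning, 14.1% (6.97 to 24.4%) and 16.8% (11.7 to 22.9%) of macrophage-like cells held a UMI of Mki67, against 9.17% and 8.31% of CD8 T-like cells, whereas Top2a was found in 2.82% and 4.32% of macrophage-like and 15.9% and 13.3% of CD8 T-like cells. The share of macrophage-like cells with Mki67 was above that of naive-like T cells, 0.787% and 1.06%, at the same thinned depth. Mki67 was also found in more cells than Top2a in monocyte-like cells, 18.8% and 10.8% against 0% and 2.70%. In migratory dendritic-like cells it was 10.1% and 12.2% against 5.41% and 10.9%. Plasma cell-like and cDC1-like cells had this order in the library labelled NOD.Cxcl16-/-, 13.2% against 3.77% and 12.8% against 9.17%, but not in WT NOD. In plasmacytoid dendritic-like cells Mki67 was at 1.99 and 2.21 CPM, which is 1 UMI in each library.

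The phase of the cycling cells was read from the lists they passed. A cell could pass the S list alone, both lists or the G2/M list alone. Of cycling CD8 T-like cells 23.0% passed S only (19.9 to 26.3%), 52.5% both and 24.6% G2/M only in WT NOD, and 24.0% (19.4 to 29.2%), 49.7% and 26.3% in the other library. CD4 T-like cells had more cells in S only, 37.9% (30.01 to 46.4%) in WT NOD and 39.8% (31.3 to 48.9%) in the other library, and fewer in both lists, 39.3% and 35.9%. The S-only intervals of CD8 and CD4 T-like cells do not overlap in either library.

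Regulatory T-like cells had 37.5% (26.4 to 49.7%) and 35.3% (26.1 to 45.4%) in S only and 27.8% and 26.5% in G2/M only. B-like cells had 44.7% (30.2 to 59.9%) and 40.0% (27.6 to 53.5%) in S only and cDC1-like cells 29.6% and 28.6%, on 27 and 21 cells. In the library labelled NOD.Cxcl16-/-, cycling germinal-centre B-like cells had 16.3% in S only, 61.2% in both and 22.4% in G2/M only. These shares hold for the call at 2000 UMIs. At 4000 UMIs the S-only share of CD8 T-like cells was 27.9% in WT NOD and 35.1% in the other library.

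**Figure D3:**
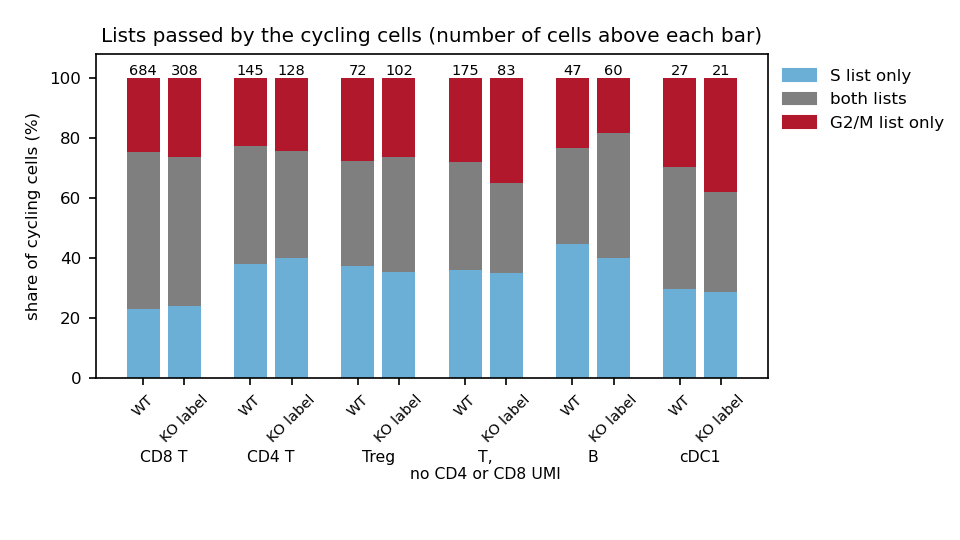
Share of cycling cells (percent) that passed the S list only (light blue), both lists (grey) or the G2/M list only (red), by class and library, for classes with at least 20 cycling cells in both; KO label stands for the library labelled NOD.Cxcl16-/-. CD8 T-like cells have the smallest S-only part of the 6 classes, 23.0% and 24.0%, and the largest part in both lists, 52.5% and 49.7%.

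Levels inside the cycling cells described how far the classes differed once division was under way. These cells were chosen by the same genes, so the values are a description. In cycling CD8 T-like cells the S list summed to 2870 CPM in WT NOD and 2953 CPM in the other library and the G2/M list to 4785 and 4958 CPM. In CD4 T-like cells it was 2816 and 3000 CPM for S and 3830 and 4145 CPM for G2/M. The sums differed little between the libraries in cycling CD8 T-like cells, while the share of such cells did. In cycling migratory dendritic-like cells S and G2/M were nearly level, 1961 and 1770 CPM in WT NOD and 2727 and 2666 CPM in the other library.

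Cycling cells were deeper than the others. Among CD8 T-like cells their median was 10852.5 against 5224.5 UMIs in WT NOD and 15247 against 5444 UMIs in the other library. The doublet score flagged 10.4% of the cycling and 6.86% of the other CD8 T-like cells in WT NOD and 5.19% and 4.98% in the other library. The gap was wider in other WT NOD classes, at 23.6% against 10.5% in regulatory T-like, 18.5% against 9.68% in cDC1-like, 30.8% against 15.6% in plasma cell-like and 22.2% against 4.32% in migratory dendritic-like cells. B-cell markers summed to 55.8 and 29.8 CPM in cycling and other cells of WT NOD and to 34.0 and 26.2 CPM in the other library, with all 6 of 6 B markers detected in each group, against 6178 CPM in B-like cells of WT NOD that were not cycling. With the barcodes of highest doublet score removed, 29.5% and 19.8% of CD8 T-like cells, 16.7% and 18.9% of regulatory T-like cells and 44.0% and 20.2% of cDC1-like cells were cycling.

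The cycling share was then compared between the libraries within each class. In CD8 T-like cells it was lower in the library labelled NOD.Cxcl16-/-, by -10.4 points against WT NOD (-13.2 to -7.67). In T-like cells without a coreceptor UMI it was -5.31 points (-7.45 to -3.16). In regulatory T-like cells the difference was 0.418 points (-4.89 to 5.54), in CD4 T-like cells -2.01 points (-4.49 to 0.456) and in B-like cells 0.170 points (-0.964 to 1.27). The intervals of these 3 classes include 0. With 1 library per group, the size of these differences cannot be set against the spread between mice. Unthinned, the CD8 T-like shares had overlapping intervals, 46.2 to 49.9% and 43.0 to 47.9%, and a difference of -2.59 points. At 1000 and 4000 UMIs it was -7.46 and -7.34 points.

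The lower share in CD8 T-like cells was present in each larger state. It was 19.5% against 11.0% in cells with Tcf7 or Slamf6, 40.6% against 33.3% in cells with Havcr2 or Entpd1 (overlapping intervals) and 35.5% against 24.6% in cells with neither pair.

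Among dendritic cells the libraries differed in opposite directions. In cDC1-like cells the difference was -27.3 points for the library labelled NOD.Cxcl16-/- against WT NOD (-41.4 to -12.5), and in migratory dendritic-like cells it was 10.5 points (3.89 to 16.6). Both rest on few cells and on the gate. When classes were gated on the thinned cells, 4 of 14 and 5 of 20 cDC1-like cells were cycling, a difference of -3.57 points, and 3 of 81 and 3 of 89 migratory dendritic-like cells, a difference of -0.333 points. With cells that carry markers of 2 lineages kept, the migratory difference was 5.06 points. With a stricter panel level the shares were 44.4% and 21.1% for cDC1-like and 3.27% and 11.9% for migratory dendritic-like cells. Summed CPM went the same way as the main shares, with the S list at 1463 and 703 CPM in cDC1-like cells and at 428 and 796 CPM in migratory dendritic-like cells.

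Markers of other lineages differed in these dendritic cells too. The macrophage panel, with 3 and 5 of 6 genes detected in cycling and other cells of WT NOD and 6 of 6 in those of the other library, summed to 10.0 CPM in cycling and 22.7 CPM in other cDC1-like cells of WT NOD, but to 1410 and 813 CPM in those of the library labelled NOD.Cxcl16-/-. Cycling migratory dendritic-like cells had more T and B markers than the others of their class, 537 against 148 and 320 against 15.7 CPM in WT NOD and 212 against 109 and 242 against 74.5 CPM in the other library, with all 6 of 6 genes of both panels detected in each group. The plasma cell panel was higher in them too, 964 against 59.0 CPM in WT NOD and 113 against 76.4 CPM in the other library. Islet hormone genes were lower in them, 22.1 against 4288 CPM and 260 against 1159 CPM. The macrophage panel was also lower, 95.7 against 393 CPM and 35.6 against 462 CPM. The part of these markers in the differences was not tested. In germinal-centre B-like cells the cycling share was higher in the library labelled NOD.Cxcl16-/-, by 24.2 points (1.53 to 48.2), and the S list was too, 3183 against 2215 CPM, but the G2/M list was lower, 4507 against 4846 CPM. Since the lists disagree, no order is read from the 17 WT NOD cells.

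Gene by gene, the members in CD8 T-like cells differed between the libraries by small amounts, mostly in 1 direction. The log2 ratio of the library labelled NOD.Cxcl16-/- over WT NOD, with 1 CPM added to both, was below 0 for 41 of 42 members, with a median of -0.24 against 0.03 over all 7490 genes with a mean of at least 10 CPM. It was -0.24 for the S list and -0.22 for the G2/M list. Plk1 had the lowest ratio, -0.50 (732 and 341 UMIs, 35.2 and 24.6 CPM), and Mki67 the highest, 0.04 (135 and 139 CPM). Mki67 was therefore level between the libraries in CD8 T-like cells while most other members were lower in the library labelled NOD.Cxcl16-/-. No member passed 1.5-fold in either direction, where 0.921% of all genes were higher and 0.708% lower by that fold.

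In regulatory T-like cells the members leaned the other way. All 42 were tested, with a median log2 ratio of 0.24 in the S list and 0.15 in the G2/M list, against 0.01 over 7749 genes. Cdc6, which loads the MCM helicase, was higher past 1.5-fold, from 10.3 to 18.3 CPM (33 and 89 UMIs, log2 ratio 0.77, counting interval 0.24 to 1.45). Ube2c was the other, from 153 to 253 CPM (0.72, 0.57 to 0.88). These are 2 of 42 where 1.57% of all genes were higher, and no member was lower where 1.73% of all genes were. The count of 2 was 1 at a minimum of 30 CPM or with 2-lineage cells kept, and 0 at 2-fold. In CD4 T-like cells none of the 40 members tested passed 1.5-fold, where 0.643% of 7617 genes were higher and 1.09% lower, and the median was -0.03 against 0.02 for all genes.

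T-like cells without a coreceptor UMI showed the widest gap. Of 30 members tested, 13 were lower by 1.5-fold or more in the library labelled NOD.Cxcl16-/-, where 2.78% of 7509 genes were, and none was higher, where 1.76% were. The 5 S genes were Mcm2, Pclaf, Tyms, Tk1 and Hells, and the 8 G2/M genes were Cdk1, Ccna2, Ccnb2, Cks1b, Ube2c, Birc5, Nusap1 and Cenpf. Cdk1 had the lowest ratio, from 25.5 to 11.9 CPM (199 and 70 UMIs, log2 ratio -1.03, counting interval -1.51 to -0.70), followed by Nusap1 at -0.89 and Cks1b at -0.86. The median of the 30 members was -0.58 against 0.05 for all genes tested. The count was 10 in cells with at least 2000 UMIs, ranged from 5 to 22 over the other pseudocounts, filters and totals tried at 1.5-fold, and was 1 at 2-fold.

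B-like cells had 26 members tested. Rrm2 alone was higher, from 13.1 to 21.0 CPM (122 and 239 UMIs, 0.64, 0.36 to 1.01), where 1.13% of 7250 genes were, and none was lower, where 0.455% were. This call was lost with 5 CPM added, with 2-lineage cells kept, at a minimum of 30 CPM and at 2-fold. The median was 0.10 against 0.05 for all genes.

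**Figure D4:**
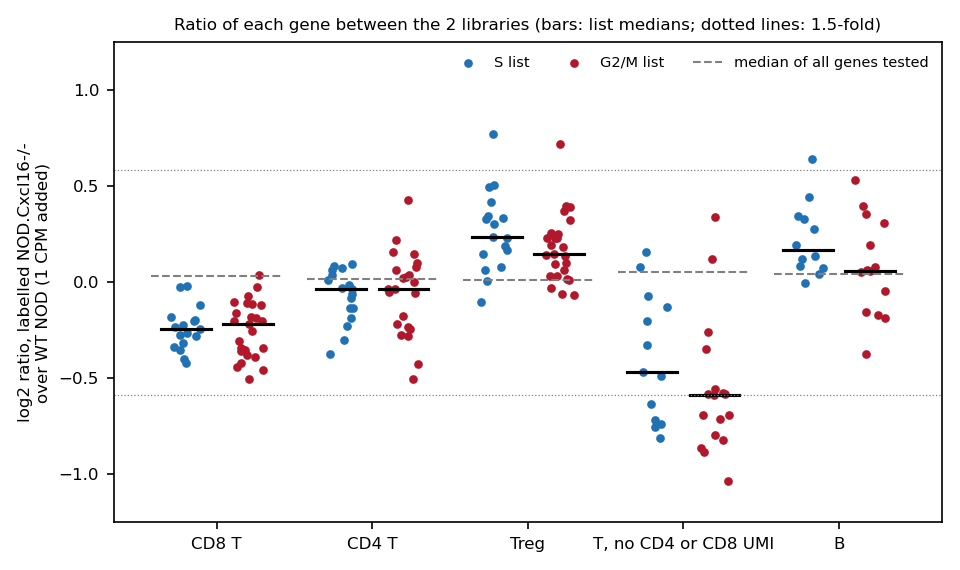
Log2 ratio of each member (library labelled NOD.Cxcl16-/- over WT NOD, 1 CPM added) in the 5 classes with at least 200 cells in each library, S list in blue and G2/M list in red. Black bars are list medians, dashed lines the medians of all genes tested and dotted lines 1.5-fold; CD8 T-like members lie between -0.50 and 0.04, regulatory T-like members mostly above 0, and 13 members of the T-like cells without a coreceptor UMI lie below 1.5-fold.

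Levels in resting cells separated the members by how closely they followed division. In naive-like T cells that were not called cycling, a group in which the call itself had removed cells with several members, 23 of 42 members in WT NOD and 22 in the other library were under 3 CPM, and 6 and 7 had no UMI. Mki67 was at 1.77 and 3.77 CPM, Ube2c at 1.77 and 1.89 CPM and Top2a at 13.0 and 10.1 CPM. A few members were well above this level. Pcna was at 82.5 and 71.6 CPM, Cenpa at 59.5 and 77.9 CPM and Mcm4 at 50.7 and 50.9 CPM, close to CD8 T-like cells not called cycling, which had 96.4 and 93.2, 48.0 and 60.4, and 50.8 and 47.5 CPM.

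Kif23, a kinesin of the central spindle that acts in cytokinesis and that was singled out after its values were seen, was higher in resting naive-like than in other CD8 T-like cells. In naive-like T cells not called cycling it was at 74.8 CPM (62.4 to 89.0) in WT NOD and 83.0 CPM (69.4 to 98.4) in the other library. In CD8 T-like cells not called cycling it was at 26.8 (23.7 to 30.3) and 29.1 CPM (25.5 to 33.1). Its intervals do not overlap in either library. In all, 7 and 8 of the 42 members were higher in the naive-like group, among them Cenpa in both libraries. The reverse held for Mcm6, with 33.0 and 34.6 CPM in the naive-like and 110 and 116 CPM in the CD8 T-like cells. The counts are of reads near the 3′ end, and which Kif23 transcripts they come from was not tested. Kif23, Cenpa, Pcna and Mcm4 thus differed less between resting naive-like and all CD8 T-like cells than Ube2c, Mki67 and Pclaf did.

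**Figure D5:**
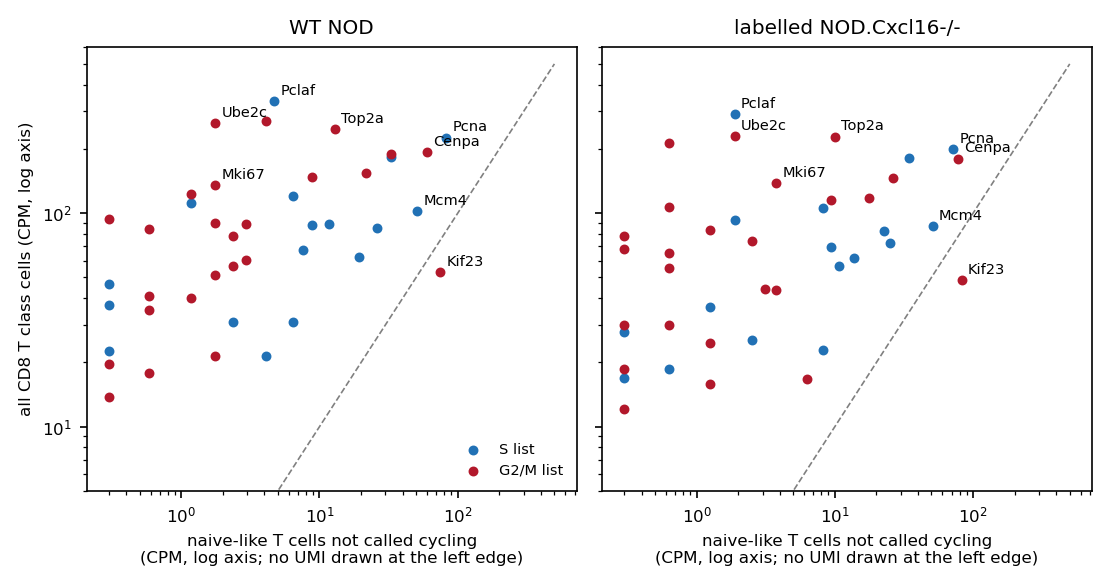
Level of each member in naive-like T cells not called cycling (horizontal, CPM on a log axis, genes without a UMI at the left edge) against all CD8 T-like cells (vertical, CPM on a log axis) in the 2 libraries; the dashed line marks equal levels. Ube2c and Pclaf lie far left of the line, Pcna, Cenpa and Mcm4 lie close to it, and Kif23 is the one member beyond it in both libraries.

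Genes of the cycle that are not members gave a readout that the call did not use. A list of 46 such genes was compared between cycling and other cells of the same class, and a gene was counted when it passed 1.5-fold the same way in both libraries. Among CD8 T-like cells 30 of the 41 tested were higher in cycling cells, where 13.6% of 7256 non-member genes were, and 5 were lower, where 10.8% were. In regulatory T-like cells 29 of 40 were higher (8.39% of all) and 3 lower (9.28%), and in CD4 T-like cells 26 of 39 were higher (11.9%) and 4 lower (15.3%). The median log2 ratio of the list in CD8 T-like cells was 1.80 in WT NOD and 1.90 in the other library. The depth of the cycling cells, given above, differs as well, and its part in these ratios was not tested.

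The genes that were higher included several late-cycle genes. Hmmr, a spindle protein, was at 0.207 CPM in other and 101 CPM in cycling CD8 T-like cells of WT NOD and at 0.614 and 106 CPM in the other library. Gmnn, geminin, which blocks relicensing of origins, was at 21.2 and 224 CPM in WT NOD and 15.97 and 246 CPM in the other library, and Smc2, a condensin subunit, at 28.9 and 267 and at 27.8 and 265 CPM. The feedback repressors E2f7 and E2f8 were at 1.55 and 19.0 CPM and at 0.518 and 26.1 CPM in WT NOD. The genes lower in cycling CD8 T-like cells were Ccnd2, Ccnd3, Cdkn1b, Btg1 and Btg2, which are cyclins of G1, the inhibitor p27 and antiproliferative factors. Btg1 was at 1878 CPM in other and 555 CPM in cycling cells of WT NOD and at 2170 and 669 CPM in the other library, and Cdkn1b at 120 and 55.8 CPM and at 135 and 62.1 CPM. Cdkn1b, Btg1 and Btg2 were lower in cycling cells of all 3 classes. Myc was level, at 19.0 and 17.1 CPM in WT NOD and 14.4 and 12.2 CPM in the other library, as was Rb1, at 59.2 and 61.2 and at 68.4 and 65.6 CPM.

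Between the libraries, few of these 46 genes passed 1.5-fold. Of the 42 tested in CD8 T-like cells 1 was higher and 1 lower, where 0.921% and 0.708% of all genes were. Cdkn1a, the inhibitor p21, was higher in the library labelled NOD.Cxcl16-/-, 37.4 against 60.8 CPM (log2 ratio 0.69), and Stmn1, a microtubule destabiliser of dividing cells, was lower, 344 against 192 CPM (-0.84). Stmn1 was lower past 1.5-fold in the other 3 T-like classes with a ratio too, at -0.88 in CD4 T-like, -0.68 in regulatory T-like and -1.36 in T-like cells without a coreceptor UMI. It was the only gene called of 36 tested in CD4 T-like and of 38 in regulatory T-like cells, where 1.09% and 1.73% of all genes were lower. In regulatory T-like cells it was thus lower while the members leaned higher. Inside cycling CD8 T-like cells it was at 638 CPM in WT NOD and 448 CPM in the other library, and in the other CD8 T-like cells at 36.9 and 16.2 CPM. Of 30 genes tested in T-like cells without a coreceptor UMI 4 were lower, Stmn1, Ccnd1, Prim1 and Prc1, where 2.78% of all genes were. Of 25 tested in B-like cells 2 were higher, where 1.13% of all genes were. These were Cdkn1a, from 27.8 to 46.1 CPM, and Cdkn3, from 10.1 to 15.7 CPM.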

How the data were processed

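The deposited files hold UMI counts for each gene in each barcode, whole numbers that were not normalised. They were made with Cell Ranger 7.0.1 and the build mm10, per the submitters' processing notes. From these counts, barcodes with fewer than 500 genes (1582 and 311) or over 10% mitochondrial UMIs (25 and 29) were left out. Cells were classed when they held at least 3 different markers of a panel at 20% or more of the median panel level of passing cells. Cells with markers of 2 lineages (1296 and 1147), with Cd4 and CD8 transcripts (281 and 179) or of no panel (1031 and 730) were given no class, which left 9644 and 8158 cells. Some marker names of the panels are not reported here. Other doublets were not removed. As an alternative, a score against 2 simulated doublets per barcode removed 0.8% for each 1000 barcodes (1358 and 862 cells).

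The members and lists were chosen with earlier results of these data known, and the gate thresholds were set after marker counts had been seen. Values are named for Mki67, Top2a, Pcna, Pclaf, up to 4 members of highest level per role, and in a library comparison the 3 called members of largest ratio in each direction. Other genes were named as counted or after their values were seen. Library ratios used genes with a mean of at least 10 CPM, 1 CPM added and a 1.5-fold threshold. With 1 library per group there is no test and no p-value. Python 3.11.15, numpy 2.4.6, scipy 1.17.1, pandas 2.3.3 and scikit-learn 1.9.0 were used, and the scripts were tested on simulated data.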

Additional observations from a re-analysis of the deposited data

Results flagged for a closer look

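The share of cycling cells differed between the libraries beyond counting error in 5 of the 16 classes, and none of these differences could be tested over mice. In CD8 T-like cells the share was -10.4 points (library labelled NOD.Cxcl16-/- minus WT NOD), in T-like cells without a coreceptor UMI -5.31 points, in germinal-centre B-like cells 24.2 points, in cDC1-like cells -27.3 points and in migratory dendritic-like cells 10.5 points. The last 3 rest on 17 and 59, on 58 and 109 and on 148 and 229 cells. With another thinning draw the germinal-centre B-like shares were 64.7% and 81.4%, and no order is read from this class.

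Cells that the report gives no class also held dividing cells, above the share in naive-like T cells. Of cells with markers of 2 lineages, 25.4% were cycling in WT NOD and 24.8% in the library labelled NOD.Cxcl16-/-. Of T-like cells with both Cd4 and CD8 transcripts it was 29.8% and 31.3%, and of cells that passed no panel 12.8% and 13.5%. The doublet score took 59.1% and 50.7% of the barcodes with markers of 2 lineages.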

How the results depend on the processing

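The CD8 T-like cycling share moved with the depth and the call but stayed lower in the library labelled NOD.Cxcl16-/- under every alternative tried. The WT NOD share, the other library's share and the difference in points were 22.1%, 14.6% and -7.46 at 1000 UMIs, 42.2%, 34.9% and -7.34 at 4000 UMIs, 48.0%, 45.5% and -2.59 without thinning, and 44.1%, 37.4% and -6.74 with at least 2 members. With at least 5 members the shares were 21.8% and 13.5%, and with the G2/M list alone 23.3% and 15.1%. The S-only share of cycling CD8 T-like cells was 27.9% and 35.1% at 4000 UMIs and 29.7% and 39.3% with at least 2 members. The cDC1-like difference was -7.24 points without thinning and -3.57 with the gate on thinned cells, where the migratory dendritic-like difference changed sign, to -0.333. The S list of CD8 T-like cells was 1040 and 827 CPM as a mean over cells, 2333 and 2010 CPM without receptor, mitochondrial and ribosomal genes in the total, and 1626 CPM in WT NOD with 2-lineage cells kept. The G2/M list was 1521 and 1114, 3613 and 3035, and 2536 CPM. The causes were not tested, apart from the totals, whose construction sets the shift.

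Of the alternatives, 6 were chosen after seeing the data: the gate on thinned cells, the stricter panel level, another thinning draw (for shares and for phases), leaving out shared barcodes, and ratios over cells of at least 2000 UMIs. No paired analysis was possible because each group has 1 library, and no replicate could be left out. Small classes limit precision, and the WT NOD germinal-centre B-like class has 17 cells. Genes under 10 CPM were given no call.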
